A study of Canis lupus familiaris with 17 samples.

Results

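Genes that p53 is known to switch on, 6 in number, were followed through 3 populations of MDCK cells, a long established epithelial line from dog kidney, in 16 RNA-seq libraries. The genes are Zmat3, Aen, Sfn, Gadd45a, Plk3 and Ddb2. Each was taken as 1 named transcript, so the account covers 6 of the 21571 transcripts in the tables. All 3 populations descend from 1 line, MDCK-pTR scribble shRNA cells, which make a short hairpin RNA against scribble, a gene of epithelial polarity, when tetracycline (TET) is present. The control was this line without TET (0 µg/ml), scribKD was the same line given 10 µg/ml TET at plating, and scribRES was an isolate of it that had come through a long culture in TET and was also given 10 µg/ml TET. Control and scribKD therefore differed in both TET and scribble silencing, which cannot be told apart by this design, and scribRES stands for 1 isolate. In every group 1300000 cells were plated per dish and RNA was taken after 67 h. The labels list 3 experiments, each with 2 control and 2 scribKD libraries, and scribRES cells were sequenced in experiments 2 and 3 only, which gave 6 control, 6 scribKD and 4 scribRES libraries. In what follows n counts libraries, whereas the study's biological replicate is the experiment. P-values over libraries can therefore be too small, and values with each experiment reduced to its mean are given beside the calls of the 6 genes between populations.

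The transcription factor p53 is stabilised by DNA damage and other stresses, after which it raises the transcription of genes that halt the cell cycle, repair DNA or prepare the cell to die. Its own inhibitor is one of its targets, so the response limits itself. In MDCK cells with scribble silenced the study asked which transcripts differ from the same line without TET and which of those differences are missing from a resistant isolate. Among the 6 genes, Zmat3 encodes a zinc finger protein that binds RNA, and Aen encodes apoptosis enhancing nuclease, an exonuclease. Sfn encodes 14-3-3 sigma, which keeps cyclin B complexes in the cytoplasm and so holds cells in G2. Gadd45a encodes a small stress sensor that acts on stress kinases and in DNA repair, Plk3 a stress responsive polo-like kinase, and Ddb2 the subunit that recognises ultraviolet lesions for nucleotide excision repair.

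Levels are given as RPKM, read numbers corrected for transcript length and library size, so they can be set side by side between genes. Library totals ran from 12612666 to 54644214 reads, the highest being the sum of the 2 runs of control replicate 2. The fewest reads behind a value of the 6 genes were 163, for Ddb2 in a control library, where counting error alone is 7.83%, and the most were 15400, for Gadd45a. The targeted gene, Scrib (XM_003431819.1), lay between 24.6 and 34.6 RPKM in control, between 9.75 and 16.2 RPKM in scribKD and between 12.2 and 14.8 RPKM in scribRES libraries. The renal transcription factor Pax8 (22.5 to 53.8 RPKM) was present in every library, Cdh16, a cadherin of kidney epithelium, lay between 0.0286 and 6.55 RPKM, and the fibroblast gene Dcn and the endothelial gene Vwf reached at most 0.056 and 0.178 RPKM. Pax8 was itself lower in scribKD than in control cells (log2 fold change -0.73), as was the epithelial marker Krt19 (-0.57). The renal markers Cldn2 (10.6 to 296 RPKM over all libraries) and Cdh16 had log2 differences of -2.11 and -1.86 there, without a test. The epithelial markers Cldn1 and Ocln had -0.12 and 0.03. In scribRES over control it was -0.76 for Cldn1 and -1.82 for Cldn2. The part of these differences in the results below was not tested. In bulk RNA, fewer cells of a type and less RNA per cell cannot be told apart.

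In control cells Sfn stood at 404 ± 190 RPKM (SD, n = 6) and Gadd45a at 237 ± 62.9 RPKM (SD, n = 6), and their ranges overlapped (182 to 589 RPKM against 177 to 325 RPKM). Aen followed at 55.8 ± 13.5 RPKM (SD, n = 6), below every Gadd45a value. Plk3 (21.0 ± 9.08 RPKM), Zmat3 (13.6 ± 2.59 RPKM) and Ddb2 (12.7 ± 3.47 RPKM; SD, n = 6 for each) came last and overlapped each other. In scribKD cells the means were 597 RPKM for Sfn, 176 for Gadd45a, 84.4 for Aen, 29.8 for Zmat3, 17.0 for Plk3 and 10.1 for Ddb2, so Zmat3 stood above Plk3 there, with overlapping ranges (23.1 to 39.8 RPKM against 6.49 to 25.8 RPKM). The spread of Sfn, 3.23-fold between the highest and the lowest control library, and of Plk3, 2.90-fold in control and 3.98-fold in scribKD, was the widest of the 6 genes.

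**Figure D1:**
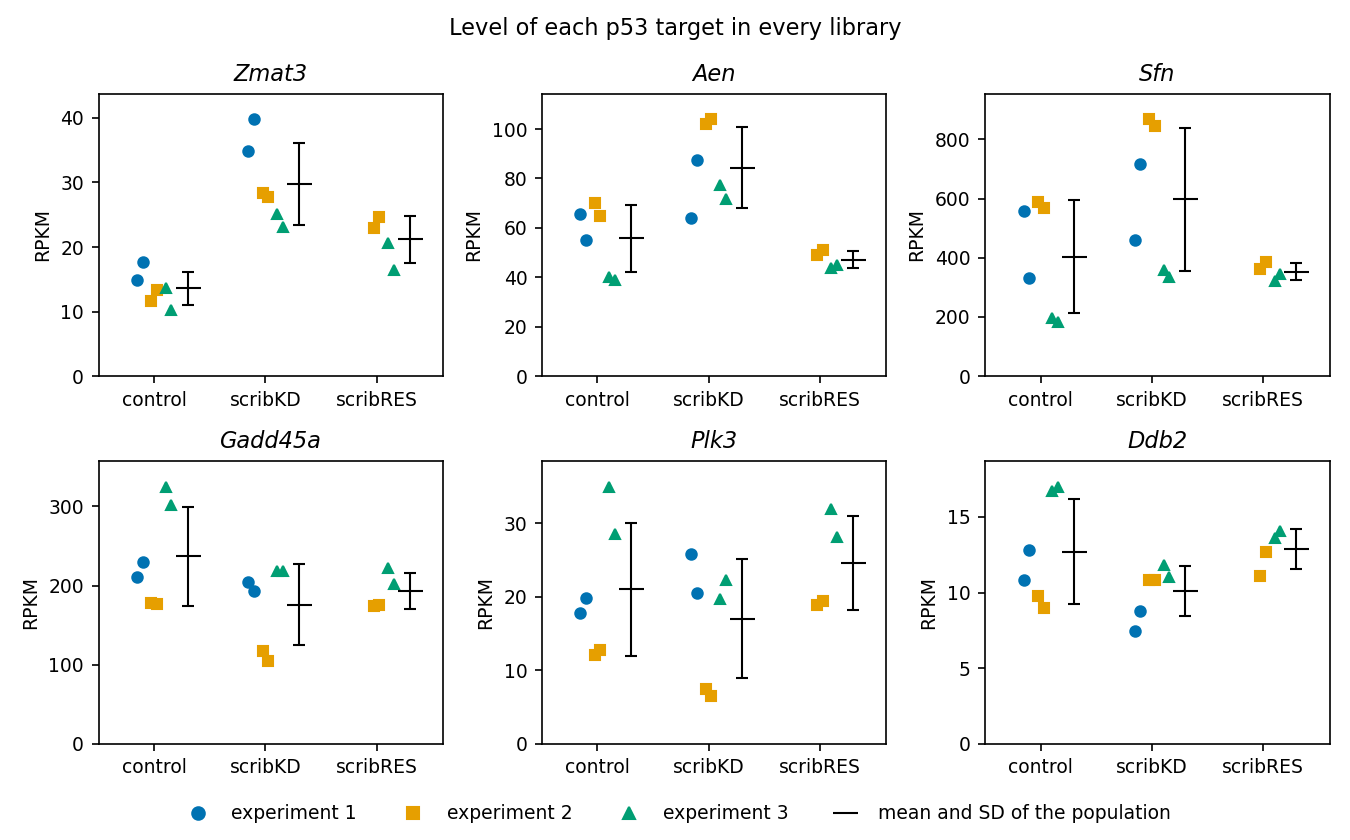
RPKM (linear axes from 0) of each gene in every library, with colours and shapes for the 3 experiments and the mean and SD of each population at the right of its points. All 6 scribKD values of Zmat3 lie above all 6 control values, while for Aen, Sfn, Gadd45a, Plk3 and Ddb2 the values of control and scribKD overlap.

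The first comparison asked what changed in scribKD against control cells. Zmat3 and Aen rose, Sfn had a higher mean, and Gadd45a, Plk3 and Ddb2 had lower means. Pairs of libraries with the same number, counted below, share an experiment, and no closer link is shown. For scribKD and control, deviations from the population means correlated at 0.64 on average for the same number. For another number of the same experiment it was 0.73, so pair counts depend on the numbering wherever libraries of 1 experiment overlap. The pairs of 1 experiment are also not separate replicates. A transcript was tested if, in at least 1 population, every library exceeded 5 RPKM and no library exceeded another by more than 2-fold, and it was called at a limma adjusted p under 0.05 with a log2 fold change beyond 0.5 in size. Sfn and Plk3 varied more than this limit in both populations and were not in the test. Of the 4 genes tested, 2 were called higher, where 4.25% of all 9691 transcripts tested were, and 0 were called lower, where 5.27% were. None of the 4 had an unadjusted p under 0.05 in the lower direction, and limma-voom on recovered reads also called 2 higher and 0 lower. The names of the 6 genes come from the study's own list of differing genes, so these counts are not independent evidence of a direction.

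Zmat3 (XM_003640141.1, 932 bases) had the clearest difference. Its lowest, median and highest levels were 10.3, 13.6 and 17.7 RPKM in control and 23.1, 28.0 and 39.8 RPKM in scribKD libraries. The populations did not overlap, as was so in the higher direction for 6.01% of transcripts tested. The log2 fold change was 1.12 ± 0.15 (SE), a 2.18-fold difference, with an adjusted p of 0.00014, and it ran from 1.03 to 1.20 when single libraries were left out. Within experiments 1, 2 and 3 the log2 differences were 1.19, 1.16 and 1.01, and scribKD was the higher in 6 of 6 same-numbered pairs. With experiment means the call was kept, at an adjusted p of 0.029.

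Aen (XM_545846.3, 1034 bases) ran from 39.1 RPKM through a median of 59.9 to 70.1 RPKM in control and from 63.9 through 82.3 to 104 RPKM in scribKD libraries. The ranges overlapped through 1 scribKD library of experiment 1 (63.9 RPKM), which lay below control libraries of experiments 1 and 2 at 65.6, 64.7 and 70.1 RPKM. The log2 fold change was 0.61 ± 0.17 (SE), 1.53-fold, with an adjusted p of 0.020. By experiment it was 0.31, 0.61 and 0.91. In experiment 1 the lower scribKD library (63.9 RPKM) lay between the controls (55.2 and 65.6 RPKM), so a count of pairs there depends on the numbering. All 12 fits that left out 1 library kept the call (0.52 to 0.69), but it was lost when experiments 2 and 3 alone were used, at a log2 fold change of 0.76 and an adjusted p of 0.054, and when each experiment was reduced to its mean, at an adjusted p of 0.22.

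Sfn (XM_003433853.1, 747 bases) had 557 and 333 RPKM in experiment 1, 589 and 567 RPKM in experiment 2, and 197 and 182 RPKM in experiment 3 in control libraries. The scribKD libraries had 459 and 716 RPKM, 868 and 844 RPKM, and 360 and 335 RPKM in the same order. Within experiments 2 and 3 both scribKD libraries thus lay above both controls, and in experiment 1 they overlapped. The mean log2 difference was 0.62, as large as that of Aen, and an exact permutation test over all 12 libraries, two-sided and unadjusted, gave p = 0.17, where 0.0022 is the smallest p that 6 against 6 allows. With no limit between replicates and experiment as a block, a fit chosen after seeing the data, Sfn was called higher (0.62 ± 0.13, SE, adjusted p = 0.0018), as were 5.48% of transcripts in that fit. Without the block the same fit gave an adjusted p of 0.25. With experiment means Sfn stayed outside the test, at a log2 difference of 0.61.

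Gadd45a (XM_003639101.1, 1223 bases) lay between 177 and 325 RPKM with a median of 221 RPKM in control, and between 105 and 218 RPKM with a median of 199 RPKM in scribKD libraries. It was lower in scribKD in 6 of 6 same-numbered pairs, with log2 differences of -0.15, -0.68 and -0.52 in experiments 1, 2 and 3. Over all libraries the log2 fold change was -0.45 ± 0.22 (SE) with an adjusted p of 0.16. The block on experiment brought the adjusted p to 0.00028 at the same log2 fold change, which stays short of the size needed for a call.

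Plk3 (XM_532604.3, 2259 bases) changed side between experiments. Control libraries had 17.8 and 19.9 RPKM in experiment 1, 12.1 and 12.7 RPKM in experiment 2, and 35.0 and 28.6 RPKM in experiment 3. For scribKD the values were 25.8 and 20.5 RPKM, 7.41 and 6.49 RPKM, and 19.7 and 22.3 RPKM. Plk3 was therefore above control in experiment 1, by 0.29 on the log2 scale, and below it in experiments 2 and 3, by log2 differences of -0.82 and -0.59. The mean log2 difference was -0.38, with an exact permutation p of 0.39 (two-sided, unadjusted). Such p-values were computed for 21 pairs of gene and comparison, and the 2 printed, for Sfn and Plk3, are those of genes outside the filter.

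Ddb2 (XM_540746.3, 1297 bases) was the least abundant of the 6 genes, with 8.98 to 17.0 RPKM in control (median 11.8) and 7.44 to 11.8 RPKM in scribKD libraries (median 10.8). Its log2 difference was -0.54 in experiment 1, turned to 0.20 in experiment 2 and was -0.56 in experiment 3, and the fit over all libraries gave -0.30 ± 0.17 (SE) with an adjusted p of 0.23. In experiment 2 control had 9.79 and 8.98 RPKM and scribKD 10.8 RPKM in both libraries, so that the sign there was opposite to the other two experiments.

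The difference between experiments was then tested itself, as an interaction of population and experiment over these 12 libraries. Gadd45a (adjusted p = 0.040), Plk3 (0.022) and Ddb2 (0.032) were called, 3 of 6 genes where 4.94% of transcripts were, and Aen (0.12), Sfn (0.51) and Zmat3 (0.74) were not. These 3 calls rest on few libraries, and the error in the test is the spread between the 2 libraries of 1 population in 1 experiment. When 1 of the 12 libraries was left out, Gadd45a kept its call in 2 fits, those without control replicate 2 or scribKD replicate 2, with adjusted p between 0.023 and 0.11 over all 12. Plk3 kept its call in 7 fits, and lost it without control replicate 4 or 5 or scribKD replicate 3, 4 or 5 (highest adjusted p 0.071). Ddb2 kept its call in 5 fits, and lost it without control replicate 4, 5 or 6 or scribKD replicate 3, 4, 5 or 6 (highest adjusted p 0.11). Replicates 1 and 2 belong to experiment 1, 3 and 4 to experiment 2, and 5 and 6 to experiment 3.

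**Figure D2:**
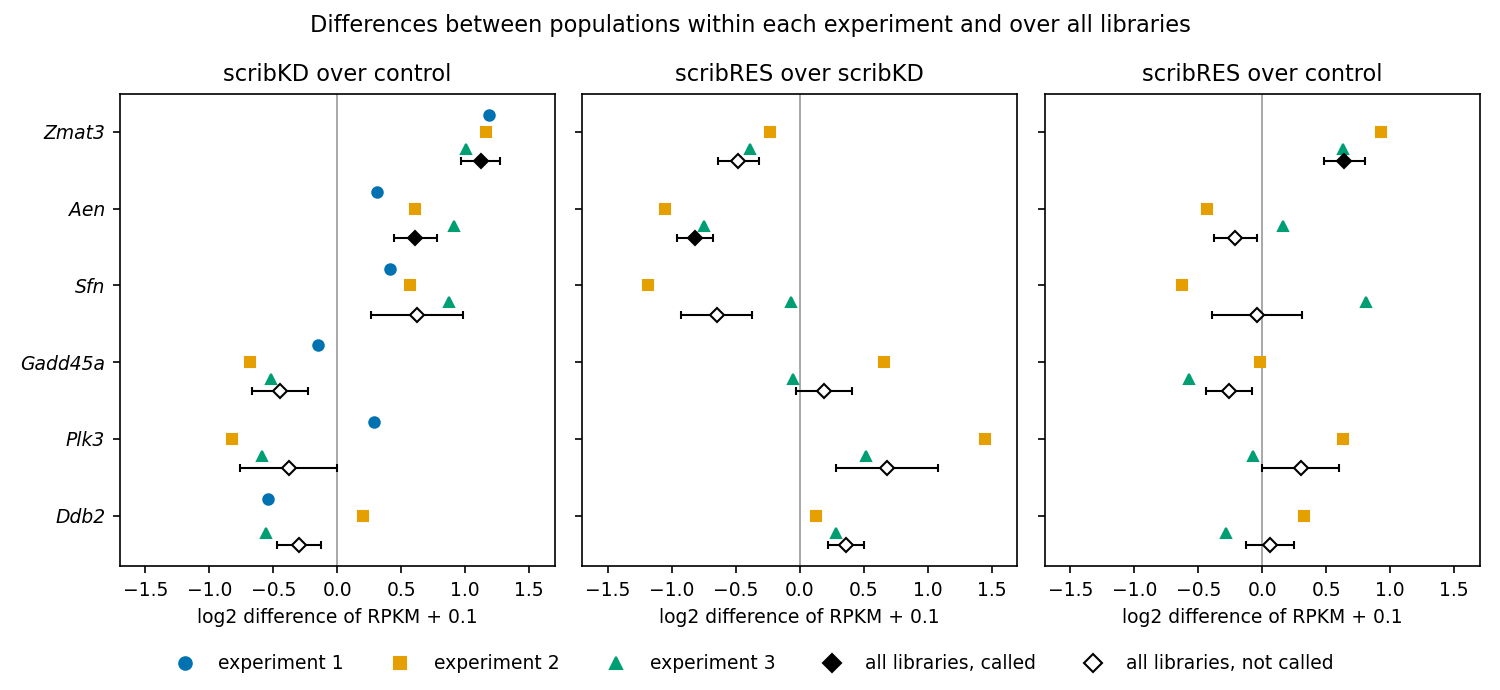
Differences in log2(RPKM + 0.1) between populations for each gene, as the difference of the 2-library means within each experiment (coloured points) and over all libraries with its SE from the fit without a limit between replicates (diamonds, filled where called in the main test). Zmat3 lies between 1.01 and 1.19 in every experiment for scribKD over control, whereas Plk3 runs from 0.29 to -0.82.

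The second comparison set the resistant isolate against scribKD cells, at the same dose of TET. Aen fell in scribRES cells, and the log2 fold changes of Sfn and Zmat3 were also negative while those of Plk3, Ddb2 and Gadd45a were positive. All 6 genes entered the test. The call was made for 1 lower, where 0.899% of 10342 transcripts were called lower, and for 0 higher, where 0.561% were. At an unadjusted p under 0.05 there were 3 lower and 1 higher, a level that 21.8% of all transcripts tested passed in either direction, and limma-voom called 1 and 0. With experiment means limma called 0 transcripts here (466 had an unadjusted p under 0.05) and 0 in scribRES over control (1149). With experiment as a block, 757 transcripts were called in place of 151, and of the 6 genes 2 were called lower (2.92% of transcripts) and 1 higher (4.40%). Because scribRES cells were not sequenced in experiment 1, the block sets them against the scribKD libraries of their own experiments. In experiment 2 that link was weak, with correlations of deviations of 0.13 to 0.19 between scribRES and scribKD libraries.

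Aen had 48.9 and 50.9 RPKM in the scribRES libraries of experiment 2 and 43.7 and 44.8 RPKM in those of experiment 3, against 63.9 RPKM or more in every scribKD library. Such a lack of overlap in the lower direction was seen for 4.84% of transcripts tested. The log2 fold change was -0.82 ± 0.14 (SE), 0.57-fold, with an adjusted p of 0.014, and by experiment it was -1.05 and -0.75. The call was lost without scribRES replicate 5 (-0.79, adjusted p = 0.068) and without scribRES replicate 6 (-0.80, adjusted p = 0.065), and was kept in the other 8 fits that left out 1 library. With experiment means it was also lost, at an adjusted p of 0.77.

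Zmat3 had 23.0, 24.7, 20.6 and 16.4 RPKM in the 4 scribRES libraries. It was below its numbered scribKD partner in 4 of 4 pairs, by log2 differences of -0.23 in experiment 2 and -0.39 in experiment 3, and the fit gave -0.48 ± 0.16 (SE) with an adjusted p of 0.13. That fit includes the scribKD libraries of experiment 1, the highest of Zmat3 (34.8 and 39.8 RPKM), which have no scribRES partner. With experiment as a block the log2 fold change was -0.31 ± 0.08 (SE, adjusted p = 0.021), short of the size needed for a call. Its scribRES values lay between the other populations in both experiments.

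Sfn was 363 and 386 RPKM in the scribRES libraries of experiment 2 and 320 and 344 RPKM in those of experiment 3, the narrowest spread of Sfn in any population (1.21-fold). Against scribKD this was a log2 difference of -1.19 in experiment 2 and of -0.07 in experiment 3. The fit gave -0.65 ± 0.27 (SE) with an adjusted p of 0.20, and with experiment as a block -0.63 ± 0.22 (SE) with an adjusted p of 0.048, which was a call. That call did not survive when the limit between replicates was also dropped (adjusted p = 0.051). With experiment means Sfn was not called either, at -0.67 with an adjusted p of 0.92.

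Plk3 had 18.9 and 19.4 RPKM in the scribRES libraries of experiment 2, where scribKD had 7.41 and 6.49 RPKM, and 31.9 and 28.2 RPKM in experiment 3, where scribKD had 19.7 and 22.3 RPKM. In both experiments scribRES was the higher, by log2 differences of 1.45 and 0.52. The scribKD libraries of experiment 1 (25.8 and 20.5 RPKM) lay within the scribRES range, and over all libraries the log2 fold change was 0.68 ± 0.39 (SE) with an adjusted p of 0.34. With experiment as a block it was 0.98 ± 0.18 (SE) with an adjusted p of 0.0052, a call. With experiment means it was 0.67 with an adjusted p of 0.92, not a call.

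Ddb2 had 11.1, 12.7, 13.6 and 14.1 RPKM in scribRES libraries, higher than the scribKD partner in 4 of 4 pairs, with a log2 fold change of 0.36 ± 0.13 (SE) and an adjusted p of 0.16. By experiment the log2 difference was smaller, 0.13 in experiment 2 and 0.28 in experiment 3. The fit includes the scribKD libraries of experiment 1, the lowest of Ddb2 (7.44 and 8.77 RPKM), which have no scribRES partner. With experiment as a block the log2 fold change was 0.21 ± 0.08 (SE, adjusted p = 0.057). Gadd45a had 174, 175, 222 and 202 RPKM and a log2 fold change of 0.19 ± 0.22 (SE, adjusted p = 0.65). For Gadd45a the log2 difference was 0.66 in experiment 2 and -0.05 in experiment 3.

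Over the 8 libraries of experiments 2 and 3, the scribRES to scribKD difference depended on the experiment for Sfn (adjusted p = 3.7e-05), Gadd45a (0.00052), Plk3 (0.0011) and Aen (0.011). These 4 of 6 genes stand beside 41.6% of 10676 transcripts called in the same test. Zmat3 (0.43) and Ddb2 (0.32) were not called. Each of the 4 calls was kept in all 8 fits that left out 1 library. The error in this test is the spread between the 2 libraries of 1 population in 1 experiment. Its p-values therefore do not measure variation between repeated experiments, and the fits that left out 1 library share this limit. With experiment means no spread is left to test the interaction against.

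The third comparison set scribRES against control cells. Zmat3 was higher in scribRES cells, and it was the 1 gene of the 6 called higher (4.24% of 10324 transcripts were), with 0 called lower (3.65% were). No gene had an unadjusted p under 0.05 in the lower direction, and limma-voom called 1 and 0. The log2 fold change of Zmat3 was 0.64 ± 0.16 (SE), 1.56-fold, with an adjusted p of 0.022, and by experiment it was 0.93 and 0.63. The call was lost without scribRES replicate 3 (0.60, adjusted p = 0.075), replicate 4 (0.56, adjusted p = 0.081) or replicate 5 (0.65, adjusted p = 0.050). With experiment means its adjusted p was 0.38. The log2 fold changes of the other genes were 0.30 ± 0.30 for Plk3, 0.06 ± 0.19 for Ddb2, -0.04 ± 0.34 for Sfn, -0.21 ± 0.17 for Aen and -0.26 ± 0.18 for Gadd45a (SE), with adjusted p between 0.34 and 0.95. Sfn near 0 in this mean was made up of a log2 difference of -0.63 in experiment 2 and 0.81 in experiment 3. The 3 comparisons share libraries in pairs, so their values are set side by side here and are not independent of each other.

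The experiments themselves differed for these genes. Over the 12 libraries of experiments 2 and 3, with population in the model, Plk3 (log2 fold change 1.19 ± 0.13, SE, adjusted p = 3e-05) and Gadd45a (0.69 ± 0.10, SE, adjusted p = 0.00015) were called higher in experiment 3, and Sfn was called lower (-1.03 ± 0.19, SE, adjusted p = 0.00072). That was 2 higher and 1 lower, where 10.2% and 8.29% of 10803 transcripts were called, and the 3 calls were kept in all 12 fits without 1 library. Ddb2 (0.38 ± 0.11, SE, adjusted p = 0.012) and Aen (-0.47 ± 0.08, SE, adjusted p = 0.00059) passed the adjusted p but not the size, and Aen reached it without scribRES replicate 3 (-0.51), 5 (-0.50) or 6 (-0.51). Zmat3 had -0.22 ± 0.09 (SE, adjusted p = 0.052). Each side is 1 experiment, so these p-values count libraries and do not measure how far experiments vary in general. Library totals also differed between experiments, from 12612666 to 16847275 reads in experiment 2 and from 18884452 to 22012611 reads in experiment 3, and the part of depth in these differences was not tested.

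Divided over its sources within those 12 libraries, the spread of Zmat3 on the log2 scale lay 87.2% between populations and 5.08% between experiments. For Aen the shares were 68.8% and 24.2%. The order was the other way round for Sfn (22.1% between populations and 57.0% between experiments), Gadd45a (29.2% and 58.7%), Plk3 (29.9% and 61.8%) and Ddb2 (11.4% and 48.0%). Ddb2 had the largest share that belonged to neither alone, 36.9% for population and experiment together, and libraries of the same population and experiment accounted for 0.41% (Sfn) to 6.14% (Zmat3). Zmat3, Aen and Sfn thus had positive log2 differences for scribKD over control and negative ones for experiment 3 over 2, and Gadd45a, Plk3 and Ddb2 had the opposite signs in both. The same libraries enter both contrasts.

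**Figure D3:**
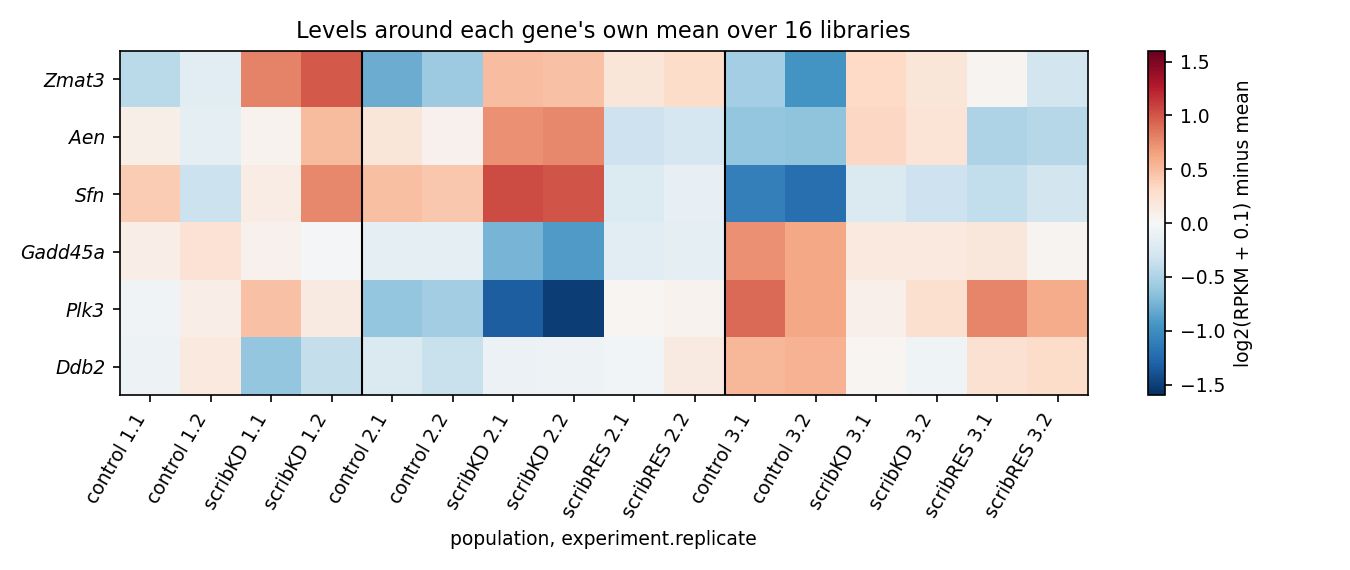
Colours give log2(RPKM + 0.1) of each gene (rows) in each of 16 libraries (columns, by experiment, population and replicate) minus the gene's mean, and black lines part the experiments. The scribKD libraries of experiment 2 are where Sfn is at its highest (868 RPKM) and Plk3 at its lowest (6.49 RPKM).

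Profiles were also compared as the root mean square difference of centred log2 levels over the 16 libraries. This describes the same values again, libraries of 1 experiment share their deviations, and it is no separate evidence of a grouping. Sfn was nearer to Aen (0.34) than to any other of the 6 genes, and Gadd45a was equally near to Plk3 and Ddb2 (0.36 each). Zmat3 was 0.47 from Aen and 0.61 from Sfn, beside 0.55 from its own mean. Ddb2 was 0.60 from Plk3, and its 0.36 from Gadd45a also exceeded the 0.31 from its own mean. Sfn and Plk3 were farthest apart (1.25). Of all 1974 named transcripts, 1388 had their name from the study's list of genes differing between control and scribKD cells. All neighbours given here are from that list, so they are set in part by how names were found. Among 1575 other named transcripts with a mean of at least 5 RPKM, the nearest to Zmat3 were Qsox1 (0.16), Icam1 (0.18) and Lix1l (0.20), against a median of 0.71 over all candidates. Icam1, an adhesion receptor for leukocytes, averaged 50.2 ± 4.39 RPKM (SD, n = 6) in control, 98.3 ± 18.7 RPKM (SD, n = 6) in scribKD and 77.6 ± 8.99 RPKM (SD, n = 4) in scribRES libraries. Nearest to Aen were Tex30 (0.12), Tubb6 (0.12), a tubulin, and Cpne3 (0.15), with a candidate median of 0.61. Sfn had Rrn3 (0.26), a factor of RNA polymerase I, Fastkd5 (0.26) and 9630033F20Rik (0.28) as its nearest (median 0.76). For Gadd45a they were 4931414P19Rik (0.16), Plekhg6 (0.17) and Krt19 (0.18), a keratin (median 0.54). Near to Plk3 lay Agpat2 (0.22) and Errfi1 (0.25), an inhibitor of the EGF receptor (median 0.75). Ddb2 lay nearest to Cd74 (0.15), the invariant chain, Kank1 (0.16) and Wwc1 (0.18), also known as KIBRA (median 0.47).

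Other p53 targets were taken from lists of 61 symbols, in which the 6 genes are included. Of the rest, 12 had a named transcript, and all 12 names come from the study's list of genes that differ between control and scribKD cells. The counts and medians for these targets are therefore set in part by how the names were found and are no independent evidence of a direction, and the comparisons with scribRES share libraries with that one. In scribKD over control 10 were tested, of which 6 were called higher and 2 lower, beside 4.25% and 5.27% of all transcripts, with a median log2 fold change of 0.64 beside 0.02 over all transcripts tested. Among the cell cycle inhibitors, Cdkn1a (p21) rose by a log2 fold change of 2.06 ± 0.16 and Ccng1 (cyclin G1) by 1.27 ± 0.11 (SE), beside 1.12 ± 0.15 for Zmat3, and Gtse1, which acts in G2, fell by 0.69 on the log2 scale (adjusted p = 0.035). Mdm2, the inhibitor that p53 induces against itself, rose by 0.95 ± 0.09 (SE). Among surface and secreted targets, Thbs1 (thrombospondin 1) rose by 1.50, Serpinb5 (maspin) by 0.77 and Epha2 by 0.52, and the receptor Notch1 fell by 0.93 on the log2 scale (adjusted p at most 0.0040). The call of Gtse1 was lost without control replicate 1, 3 or 4 or scribKD replicate 1, 2, 5 or 6 (adjusted p up to 0.081), and that of Epha2 without control replicate 2, 5 or 6 or scribKD replicate 2 or 3. None of the other 8 repair targets and 18 apoptosis targets in the lists had a named transcript, so the 6 genes cannot be set beside them.

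In scribRES over scribKD, 10 of these other targets were tested, 4 were called lower and 0 higher, beside 0.899% and 0.561% of all transcripts, and the median was -0.51 beside 0.01 over all transcripts. Cdkn1a (-1.46 ± 0.15), Mdm2 (-0.99 ± 0.09), Ccng1 (-0.79 ± 0.09) and Epha2 (-0.56 ± 0.10; log2 fold changes, SE) were those called. Epha2 lost the call without scribKD replicate 2 or any 1 scribRES library (adjusted p up to 0.080). In scribRES over control, 10 were tested, 2 were called higher and 1 lower (4.24% and 3.65% of all transcripts), and the median was 0.01 beside 0.02. Thbs1 (1.04 ± 0.17) and Cdkn1a (0.59 ± 0.15) were higher and Notch1 (-0.71 ± 0.13) lower. Cdkn1a lost that call without control replicate 3 or scribRES replicate 3, 4 or 6 (adjusted p up to 0.089), whereas Mdm2, at -0.04 ± 0.09, was not called.

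**Figure D4:**
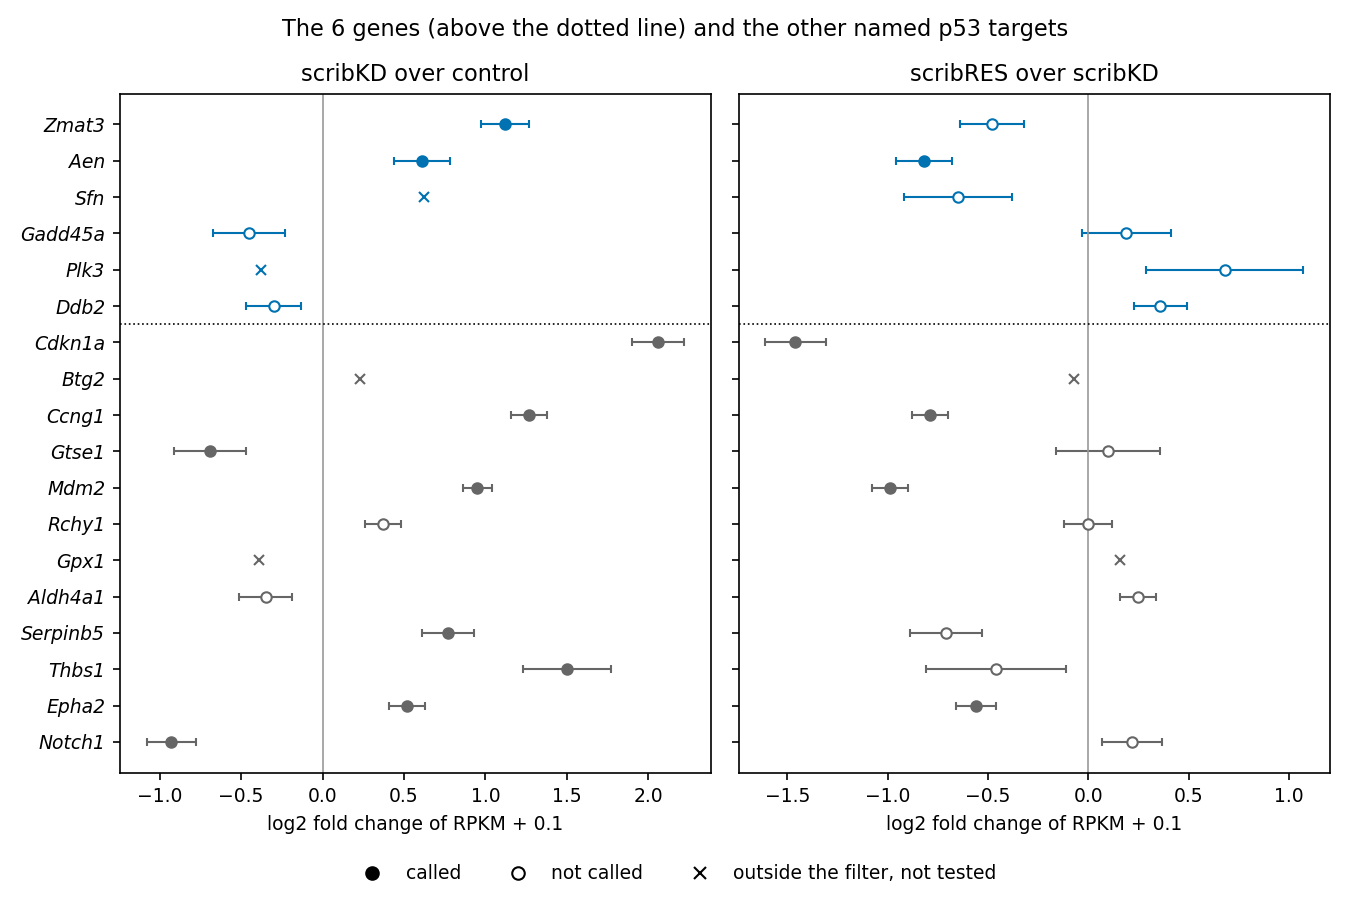
Log2 fold change of RPKM + 0.1 with its SE (horizontal axis) for the 6 genes (blue) and the 12 other named p53 targets (grey), filled where called, and crosses without an error bar where a gene was outside the filter. Cdkn1a, at 2.06 and -1.46, moves farthest in both comparisons, and Zmat3 (1.12) lies between Mdm2 (0.95) and Ccng1 (1.27) for scribKD over control.

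Genes related to the 6 by sequence or by pathway were few among the named transcripts. Of 18 relatives, 5 had names, all from the same list of genes differing between control and scribKD cells, so their counts are likewise no independent evidence. In scribKD over control 3 were tested, 1 was called lower, beside 5.27% of all transcripts, 0 were called higher and the median was -0.17. That 1 was Plk1, the mitotic polo-like kinase, at -0.64 ± 0.18 (SE, adjusted p = 0.022), and the call was lost without scribKD replicate 1 or 2 (adjusted p up to 0.051). Gadd45b, a paralogue of Gadd45a, had -0.05 ± 0.19 (SE, adjusted p = 0.88). Gadd45g, another paralogue, ran from 1.43 to 29.6 RPKM over all libraries and stayed outside the filter. Its log2 difference was -1.51 in scribKD over control and 0.81 in scribRES over scribKD. Isg20, an exonuclease related to Aen and its neighbour in a RefSeq table of another dog assembly, ran from 3.88 to 73.8 RPKM over all libraries and had 1.44 ± 0.42 (SE, adjusted p = 0.090) in scribRES over scribKD, opposite in sign to Aen. With experiment as a block this was 1.79 and a call (adjusted p = 0.0063). In scribRES over scribKD and in scribRES over control, 4 relatives were tested in each and 0 were called.

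Of 12 genes of the G2 to mitosis step, on which Sfn acts, 4 had names, 3 of them from that same list, and 3 were tested in scribKD over control, with 1 called higher and 2 lower (4.25% and 5.27% of all transcripts), counts that the choice of names fixes in part. Foxm1, a factor for mitotic genes, fell by 0.75 and Ccnb2 (cyclin B2) fell by 0.73 on the log2 scale, and Wee1, the kinase that restrains cyclin B complexes, rose by 0.65 (adjusted p at most 0.024). The call of Wee1 was lost without control replicate 3, 5 or 6 or scribKD replicate 1 or 2 (adjusted p up to 0.056). In the comparisons with scribRES, 4 were tested and 0 called in each. Of 11 stress kinases and partners of Gadd45 proteins, Map2k3, which activates p38, was the 1 with a name, again from that list. Its log2 fold change was 0.61 in scribKD over control (adjusted p = 0.057, and with the block 0.00038, a call) and -0.77 in scribRES over scribKD (adjusted p = 0.041), and the second was kept in 2 of 10 fits that left out 1 library, those without scribKD replicate 1 or 6.

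Immediate early genes, which share a fast response to stress and growth factors with Plk3 and Gadd45a, were named for 14 of 20 symbols, 10 of them from the list of genes differing between control and scribKD cells, so these counts are not independent of that comparison either. In scribKD over control 7 were tested, Fos was called lower (-1.19 ± 0.35, SE, adjusted p = 0.024), beside 5.27% of all transcripts, and 0 were called higher, with a median of -0.40. Outside the filter, Fosl1 (1.01), Dusp4 (0.81) and Atf3 (0.10) had positive log2 differences. Those of Fosb (-1.22), Egr2 (-0.50), Dusp5 (-0.48) and Dusp1 (-0.31) were negative. The call of Fos was lost without control replicate 5 or 6 or scribKD replicate 3 (adjusted p up to 0.051). In scribRES over scribKD 9 were tested and Fosl1 was called lower (-0.99, adjusted p = 0.041, kept in 2 of 10 fits, those without scribKD replicate 1 or 6), and in scribRES over control 10 were tested and 0 called. Of the ATF4 response, 2 of 10 symbols had names, and Vldlr was called higher in scribRES over scribKD (0.67, adjusted p = 0.023) and over control (0.56, adjusted p = 0.037). The first call was lost without scribKD replicate 5 or any 1 scribRES library (adjusted p up to 0.075), and the second without control replicate 1, 3 or 4 or any 1 scribRES library (adjusted p up to 0.10). The names of Vldlr, Egr1, Egr2, Atf3 and Ddit4 come from the second of the study's gene lists alone, in which 34 of 306 shared transcripts carry another name than in the first, so these names are uncertain. Of the 26 genes of nucleotide excision repair, Ddb2 was the 1 with a name.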

How the data were processed

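RNA was sequenced as single reads from unstranded libraries, in 17 runs of 16 libraries. The authors mapped the reads with TopHat2 2.0.6 after cutadapt 1.0, per the labels, and deposited RPKM for 21571 transcripts placed on the dog genome CanFam3.1. How reads shared by several transcripts were counted is not given in the sources used here. The deposited RPKM values were whole multiples of 1 read: 100% of values above 0 came out whole within 0.0001, which gave back the reads. The 2 runs of control replicate 2 were averaged and counted once; their RPKM of Zmat3 were 17.0 and 18.3. Names covered 9.2% of transcripts. The 6 genes and all lists were chosen with earlier results of these data known. Named beside them were, for each, the 3 nearest profiles (2 for Plk3), up to 4 called genes per list and comparison, Scrib, marker genes and some genes not called.

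Each pair of populations was fitted with limma 3.58.1 in R 4.3.3 (trend, two-sided, Benjamini-Hochberg) on log2(RPKM + 0.1), without a block, and interactions were tested by F tests. The fits were tested on simulated data. For the population comparisons each library was drawn independently there, with no effect of experiment. The simulation therefore cannot show how the fits behave where libraries of 1 experiment vary together. On recovered reads limma-voom called 925, 130 and 758 transcripts, against 923, 151 and 815. Samples with the same number come from the same experiment per the labels, and deviated together from their population means (lowest correlation of a pair 0.11). Experiment was therefore used as a replicate block in an alternative. The scribRES libraries of experiment 2 correlated at 0.13 to 0.19 with scribKD libraries of experiment 2, and at 0.37 to 0.55 with those of experiment 1. Against control libraries it was 0.11 to 0.35 and 0.42 to 0.60. For scribRES and scribKD libraries within experiment 3 it was 0.57 to 0.65. The basis for the block is therefore uneven for scribRES. The study counts experiments as biological replicates (3 for control and scribKD, 2 for scribRES), whereas n and the fits here count libraries, and nothing says that libraries of 1 experiment came from separate cultures. P-values may therefore measure technical spread and be too small, so each experiment was also reduced to its mean in an alternative. Transcripts of p53 itself and a few others are not reported here.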

Additional observations from a re-analysis of the deposited data

Results flagged for a closer look

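In 7 interaction tests a difference between populations depended on the experiment. For scribKD over control these were Plk3 (adjusted p = 0.022), Ddb2 (0.032) and Gadd45a (0.040), and for scribRES over scribKD they were Sfn (3.7e-05), Gadd45a (0.00052), Plk3 (0.0011) and Aen (0.011). The first 3 lost their call in 5, 7 and 10 of the 12 fits that left out 1 library, and the other 4 kept it in all 8 such fits. All these tests take the spread between libraries of 1 experiment as their error. In 18 groups of libraries, 1 for each gene and population, Dixon's test found no library apart from the rest. The test looks for 1 such library, and could not find 2 libraries of 1 experiment that lay apart together.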

How the results depend on the processing

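Of 690 values of single genes under other settings, 631 stayed on their side of the threshold, 35 lost a call, 23 gained one with the same sign and 1 gained one with the opposite sign. The last was Sfn in scribRES over control, at -0.04 over all libraries, which was called at 0.81 in experiment 3 only and at -0.63 in experiment 2 only. The 631 include values of Sfn and Plk3 in scribKD over control that stayed outside the filter and so could not be called. The counts of transcripts called, 923, 151 and 815 for scribKD over control, scribRES over scribKD and scribRES over control, moved most with how experiments were treated. With experiment as a replicate block the second became 757 and the third 1513, with 2 of the 6 genes lower and 1 higher in scribRES over scribKD. With the replicate number as a replicate block the second was 404 of 10342 transcripts tested, with 1 gene higher and 1 lower. The block changed no other call of the 6 genes within the filter. Dropping the limit between replicates as well, chosen after seeing the data, gave 832 and 1648, with 1 gene higher in scribRES over scribKD. Reducing each experiment to its mean, which leaves fewer samples, gave 201, 0 and 0 (at an unadjusted p under 0.05, 1604, 466 and 1149). In scribKD over control 1 gene was higher, as were 94 of 9691 transcripts, and 0 genes were called in the others. Experiments 2 and 3 only gave 314 of 10501 transcripts for scribRES over scribKD. For scribKD over control they gave 865 of 10109, with 1 gene higher.

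Within single experiments, also chosen after seeing the data and with 2 libraries against 2, 1419, 1770 and 1904 transcripts were called for scribKD over control in experiments 1, 2 and 3, with 1, 3 and 3 of the 6 genes higher (5.01%, 8.91% and 7.82% of transcripts) and 0, 2 and 3 lower (7.96%, 7.35% and 9.42%). For scribRES over scribKD it was 2474 in experiment 2 (2 genes higher, 2 lower, beside 10.9% and 11.4% of transcripts) and 643 in experiment 3 (1 higher, 1 lower, beside 3.97% and 1.88%). For scribRES over control it was 3575 in experiment 2, with 2 genes higher and 1 lower in each experiment (16.9% and 15.4% of transcripts in experiment 2, 5.28% and 5.05% in experiment 3). Without the filter, experiment 3 over experiment 2 rose from 1998 to 3581, and the interaction for scribKD fell from 514 to 187 with 0 of the 6 genes.

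Leaving out single libraries moved scribRES over scribKD between 51 of 10442 transcripts (without scribRES replicate 5) and 227 of 10388 (without scribKD replicate 1), with 0 to 1 gene lower. It moved scribRES over control between 474 of 10445 (without scribRES replicate 4) and 1026 of 10365 (without control replicate 5), with 0 to 1 gene higher. The interaction for scribKD ran from 47 of 10437 (without control replicate 5, 0 genes) to 1416 of 10436 (without control replicate 2, 3 genes). The most genes, 4, were called without scribKD replicate 2, where 925 of 10426 transcripts were. With single libraries left out, experiment 3 over experiment 2 had 1 to 2 genes lower. The cause was not tested. Other pseudocounts, RPKM minimums and median-ratio scaling, which shifted the median of all transcripts by at most 0.026 (log2), moved none of the counts for the 3 population comparisons by over 1.5 times. Depth limits Ddb2 and Zmat3 most, with counting errors up to 7.83% and 7.60%.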
